A study of Mus musculus with 13 samples.

Results

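The liver sinusoid is lined by a specialised endothelium, and 10 genes of liver endothelium were followed here out of the 23019 genes present in all 3 deposited count tables. They were chosen by name, with earlier results of these data known, and looked up by Entrez identifier. The measured value stated with the choice was the count of Sox17, which differs between tables. That difference is described below without a test, while Sox17 was tested between the groups like the other genes. Of the 10, 5 are scavenger and clearance receptors of the sinusoid (Stab1, Stab2, Lyve1, Clec4g and Fcgr2b), 2 are a secreted and a signalling gene of the sinusoid (Oit3 and Kdr), and 3 are genes of continuous and large-vessel endothelium (Cd34, Vwf and Sox17). Whole livers of C57 mice aged 3 months were sequenced in 3 groups. The no BDL group was 5 mice without ligation, for which no oligonucleotide is named. Both other groups underwent bile duct ligation (BDL), a surgical obstruction of bile flow that leads to cholestasis and fibrosis, and 4 of these mice received a control oligonucleotide (miR-Ctrl BDL) while 4 received an inhibitor of the microRNA miR-873-5p (anti-miR-873 BDL). The mice were male, each injection carried 60 µg per mouse, injections were given on days 3 and 5 after ligation, and livers were taken on day 7. The labels of the no BDL mice describe neither an oligonucleotide nor a sham operation. Effects of the ligation and of receiving an oligonucleotide therefore cannot be told apart in a comparison with them. Nothing states that the mice of a group were kept in separate cages or processed on separate days, so p-values measure the spread between these livers.

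Sinusoidal endothelial cells carry open pores (fenestrae), lack a continuous basement membrane, and clear hyaluronan, modified proteins and small immune complexes from the blood through stabilins, Lyve1, the lectin Clec4g and the Fc receptor Fcgr2b. Signalling by vascular endothelial growth factor through its receptor Kdr maintains this state. In chronic liver injury the cells can lose their pores and clearance receptors and take on features of ordinary capillaries, among them the surface sialomucin Cd34. That change is known as capillarization. Arteries, veins and portal vessels of the liver are lined by continuous endothelium, which stores the clotting protein Vwf, and in arteries it expresses the transcription factor Sox17.

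The agent given to the anti-miR-873 mice is directed against a single mature microRNA, which is shown with its seed (bases 2 to 8) in capitals, and RefSeq places it on the minus strand of GRCm38, the build also known as mm10 that the files use.
mmu-miR-873a-5p, chr4:36668556-36668576: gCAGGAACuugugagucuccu
Promoter windows of 300 bases were found in RefSeq's GRCm38.p6 table for 6 of the 10 genes, and 3 are shown because Cd34 was higher, Kdr lower and Stab2 overlapping between the groups relative to other endothelial genes after ligation. Each sequence reads 5′ to 3′ along its gene, and capitals mark GGAA or its reverse complement TTCC, the core bound by the ETS factors that are active in endothelium.
Cd34 promoter, chr1:194938571-194938870, plus strand: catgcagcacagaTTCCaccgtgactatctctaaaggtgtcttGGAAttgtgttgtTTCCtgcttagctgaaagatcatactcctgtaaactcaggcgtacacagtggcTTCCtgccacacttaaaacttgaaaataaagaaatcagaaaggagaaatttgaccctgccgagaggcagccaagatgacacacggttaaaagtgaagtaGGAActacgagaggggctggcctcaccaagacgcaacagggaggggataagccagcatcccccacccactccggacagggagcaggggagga
Kdr promoter, chr5:75978406-75978705, minus strand: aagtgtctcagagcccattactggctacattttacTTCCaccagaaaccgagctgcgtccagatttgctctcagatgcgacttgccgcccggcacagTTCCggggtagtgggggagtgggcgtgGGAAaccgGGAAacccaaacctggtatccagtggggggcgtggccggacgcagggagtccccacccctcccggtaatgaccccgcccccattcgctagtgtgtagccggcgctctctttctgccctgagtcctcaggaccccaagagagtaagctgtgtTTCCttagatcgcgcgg
Stab2 promoter, chr10:87007893-87008192, minus strand: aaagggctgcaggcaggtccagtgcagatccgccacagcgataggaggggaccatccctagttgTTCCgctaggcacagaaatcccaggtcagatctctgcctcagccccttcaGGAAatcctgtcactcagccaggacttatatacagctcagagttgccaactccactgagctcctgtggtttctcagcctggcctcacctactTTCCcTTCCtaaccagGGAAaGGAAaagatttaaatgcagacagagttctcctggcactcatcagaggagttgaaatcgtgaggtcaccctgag
All 6 windows held the ETS core, as did 96.0% of 32851 promoter windows of the same length. The GATA motif GATAA was in 1 of the 6 (Cd34) and in 25.4% of all windows. The SOX motif ACAAT was in 3 of 6 (Fcgr2b, Cd34 and Clec4g) and in 31.0% of all windows. The FOX motif TGTTTAC was in 0 of 6 and in 3.65% of all windows. Both strands were searched, and matches of different motifs can overlap.

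Between 12185333 and 19689037 reads were counted per library, and values are given as normalized counts, that is counts relative to library sizes scaled with edgeR's trimmed mean of M-values (TMM). The TMM factors ran from 0.625 to 0.866 in no BDL, from 1.08 to 1.34 in miR-Ctrl BDL and from 1.13 to 1.45 in anti-miR-873 BDL. Fold changes are therefore relative to the bulk of genes, and without TMM the median of all genes was shifted by 0.79 (miR-Ctrl BDL) and 0.82 (anti-miR-873 BDL) on the log2 scale against no BDL. At an adjusted p of 0.05, 2491 genes rose and 2175 fell in the miR-Ctrl BDL livers relative to no BDL, against 9360 and 275 without TMM (73.7% of the genes tested). For anti-miR-873 BDL the split was 1715 and 1108, against 10063 and 131 without TMM (77.6%). The table comparing both BDL groups leaves out miR-Ctrl mouse 3 and anti-miR-873 mouse 2, which are present in the tables against no BDL. Many, but not all, of the results that they move are also given without them. Gnmt, the hepatocyte gene that the study regards as the target of miR-873-5p, had 1516 ± 277 normalized counts in no BDL (SD, n = 5), 535 ± 91.4 in miR-Ctrl BDL (n = 4) and 817 ± 504 in anti-miR-873 BDL (n = 4). Its log2 difference between anti-miR-873 and miR-Ctrl BDL was 0.10 (SE 0.384, edgeR adjusted p = 0.970, 3 mice per group).

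After ligation Cd34 was higher in all 8 BDL livers than in any liver without BDL and passed the test in both BDL groups. Oit3 fell in miR-Ctrl BDL (edgeR adjusted p = 0.0184, against 0.0979 in anti-miR-873 BDL) and Kdr fell in anti-miR-873 BDL (0.0385, against 0.0808 in miR-Ctrl BDL), and neither passed between the BDL groups. The scavenger receptors, Vwf and Sox17 passed in neither. All 10 genes passed the filter on low counts in each comparison. In miR-Ctrl BDL against no BDL, 2 of 10 passed an adjusted p of 0.05 in the quasi-likelihood test of edgeR with p-values adjusted by the Benjamini-Hochberg method (edgeR adjusted p from here on), where 35.7% of the 13072 genes tested did. These were 1 gene higher and 1 lower, where 19.1% and 16.6% of all genes were, and 3 of 10 had an unadjusted p under 0.05, beside 45.7% of all genes. In anti-miR-873 BDL against no BDL, 2 of 10 passed, where 21.5% of 13130 genes did. Again 1 was higher and 1 lower, beside 13.1% and 8.44% of all genes, and 5 of 10 had an unadjusted p under 0.05, beside 36.2%. Both counts past the adjusted threshold are close to or below these backgrounds. The median log2 fold change of the 10 genes was -0.25 and -0.37, beside -0.011 and -0.0070 over all genes tested. In whole liver, fewer endothelial cells and less RNA per endothelial cell cannot be told apart. Both comparisons share the same 5 no BDL mice.

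**Figure D1:**
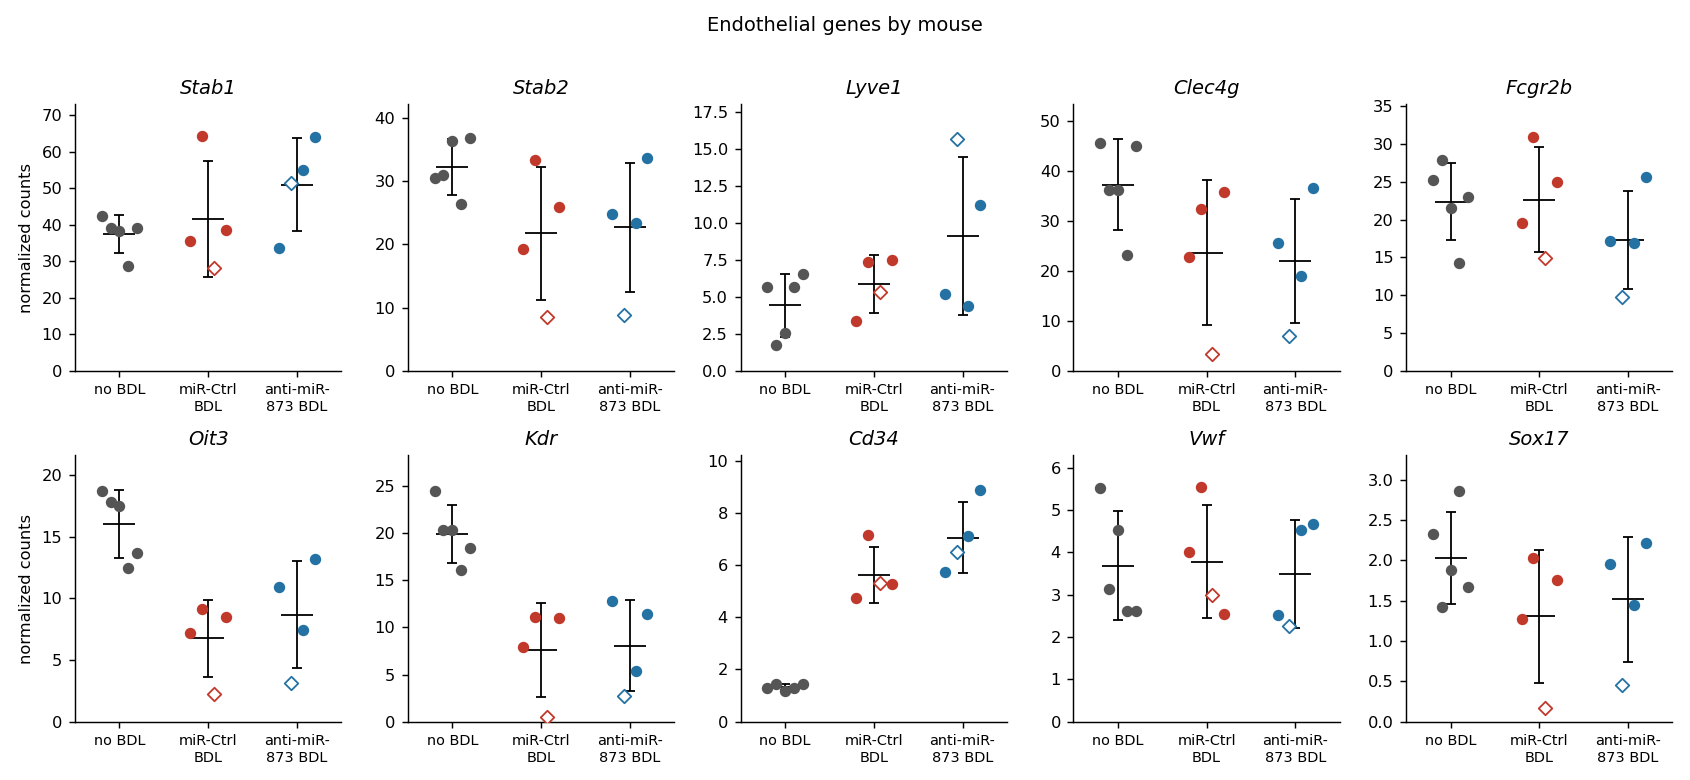
Normalized counts (vertical axis, linear from 0) of the 10 endothelial genes in each mouse, with the group mean and SD as bars, filled circles for mice and open diamonds for miR-Ctrl mouse 3 and anti-miR-873 mouse 2. Cd34 runs from 1.19 to 1.43 in no BDL and from 4.74 to 8.89 in the BDL mice, while Kdr runs from 16.0 to 24.5 in no BDL and from 0.499 to 12.8 in the BDL mice.

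Cd34 (Entrez 12490, chr1:194938821-194961292, plus strand), the sialomucin of continuous capillaries, showed the widest separation. In the mice without BDL it had 1.29, 1.43, 1.19, 1.31 and 1.43 normalized counts, from 14 to 18 reads. In miR-Ctrl BDL it had 4.74, 7.16, 5.32 and 5.26, and in anti-miR-873 BDL 5.73, 6.49, 7.11 and 8.89. The no BDL mice lay within a narrow band below every ligated mouse, and the BDL groups overlapped each other. Cd34 rose 4.25-fold in miR-Ctrl BDL (log2 2.09, SE 0.184, edgeR adjusted p = 0.000108) and 5.36-fold in anti-miR-873 BDL (log2 2.42, SE 0.185, edgeR adjusted p = 0.000252). It passed the threshold in each of the 9 fits that left out a mouse, in both comparisons, and under scaling by library size alone. Cd34 is also made outside endothelium, by fibroblasts and other mesenchymal cells, and the summed level of 7 fibroblast and mesothelial genes ran from 79.8 to 125 normalized counts in no BDL, from 116 to 189 in miR-Ctrl BDL and from 158 to 250 in anti-miR-873 BDL. The mesothelial marker Msln had 0 to 1 reads in no BDL mice, 112 to 399 in miR-Ctrl BDL and 71 to 355 in anti-miR-873 BDL. Their part in the Cd34 result was not tested. The genes whose log2 normalized counts followed Cd34 most closely over the 13 mice were Col5a2 (Pearson r = 0.985), Col6a2 (0.978) and Sulf1 (0.978), a measure that includes the difference between the groups.

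Kdr (Entrez 16542, chr5:75932827-75979072, minus strand), the main receptor for vascular endothelial growth factor, was lower after ligation. It had 24.5, 20.3, 20.3, 16.0 and 18.4 normalized counts without BDL. In miR-Ctrl BDL it had 7.89, 11.1, 0.499 and 11.0, and in anti-miR-873 BDL 12.8, 2.71, 5.36 and 11.4. Every ligated mouse was below every mouse without BDL, and the lowest values were miR-Ctrl mouse 3, with 6 reads, and anti-miR-873 mouse 2, with 36. The log2 fold change was -1.35 in miR-Ctrl BDL (SE 0.547, edgeR adjusted p = 0.0808) and -1.27 in anti-miR-873 BDL (SE 0.376, edgeR adjusted p = 0.0385), the latter a 2.41-fold fall. Without miR-Ctrl mouse 3 the change was -0.98 with a smaller error (SE 0.166, edgeR adjusted p = 0.00165), and without anti-miR-873 mouse 2 it was -0.999 (SE 0.256, edgeR adjusted p = 0.0183). The call in anti-miR-873 BDL was kept in 3 of the 9 fits that left out a mouse, those without no BDL mouse 5 or anti-miR-873 mouse 1 or 2. It was lost without any of no BDL mice 1 to 4 or anti-miR-873 mouse 3 or 4 (edgeR adjusted p from 0.0512 to 0.109). With library size alone Kdr stayed negative, at -0.50 and -0.42, and passed in neither comparison (edgeR adjusted p = 0.427 and 0.342).

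Oit3 (Entrez 18302, chr10:59422960-59441779, minus strand), which encodes a secreted protein made by sinusoidal endothelium, was also lower in most ligated mice. Its normalized counts were 18.7, 17.8, 17.5, 12.4 and 13.7 without BDL. They were 7.16, 9.13, 2.24 and 8.47 in miR-Ctrl BDL and 10.9, 3.17, 7.47 and 13.2 in anti-miR-873 BDL. All miR-Ctrl BDL mice were below the no BDL range, whereas anti-miR-873 mouse 4 reached into it. Oit3 fell 2.32-fold in miR-Ctrl BDL (log2 -1.22, SE 0.335, edgeR adjusted p = 0.0184), and this held in 9 of 9 fits that left out a mouse, with -0.95 without miR-Ctrl mouse 3 (SE 0.167, edgeR adjusted p = 0.00209). In anti-miR-873 BDL the log2 fold change was -0.85 (SE 0.337, edgeR adjusted p = 0.0979), and without mouse 2 it was -0.59 (SE 0.203, edgeR adjusted p = 0.0532). With library size alone the call in miR-Ctrl BDL was lost (log2 -0.38, edgeR adjusted p = 0.359), and the value in anti-miR-873 BDL was 0.013.

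In normalized counts, 3 of 10 genes did not overlap between miR-Ctrl BDL and no BDL (Oit3, Kdr and Cd34), as did 29.5% of all genes. Between anti-miR-873 BDL and no BDL 2 of 10 did not (Kdr and Cd34), beside 19.1% of all genes.

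**Figure D2:**
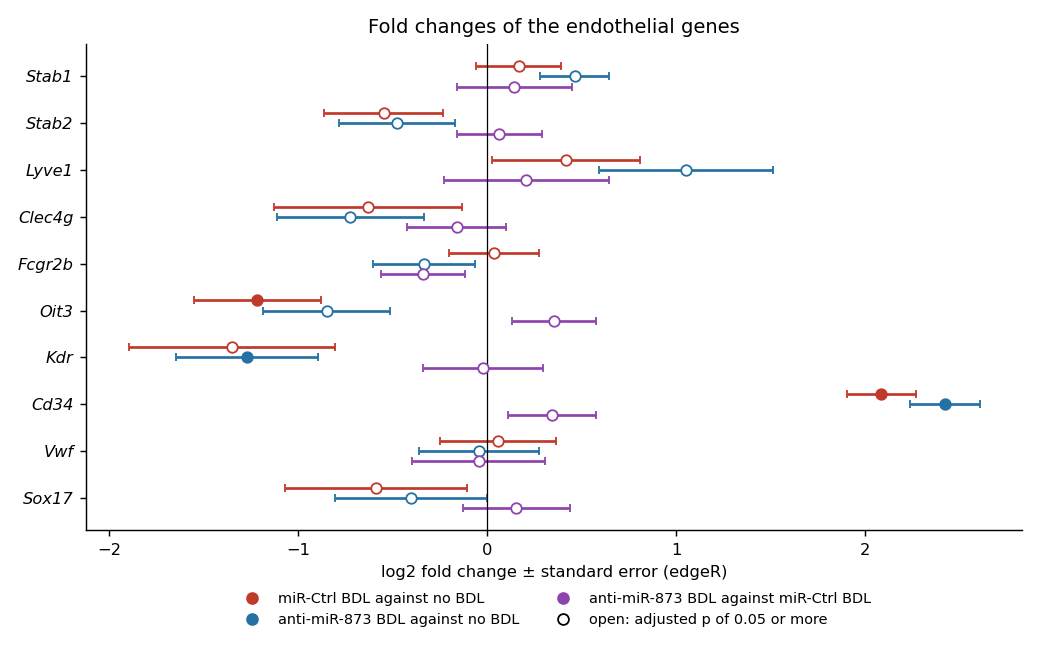
Log2 fold change with its standard error (horizontal axis) of each endothelial gene in the 3 comparisons, with filled points for an edgeR adjusted p under 0.05. Cd34 stands at 2.09 and 2.42 against no BDL, Kdr and Oit3 lie to the left of 0 in both BDL groups, and all points of anti-miR-873 BDL against miR-Ctrl BDL are open and lie between -0.34 and 0.35.

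Among the scavenger receptors no gene passed the test against no BDL, and the 5 did not share a direction. Stab2 (Entrez 192188, chr10:86841194-87008038, minus strand), the stabilin that takes up hyaluronan, had 30.6, 30.9, 36.4, 26.4 and 36.9 normalized counts without BDL. It had 19.2, 33.4, 8.48 and 25.9 in miR-Ctrl BDL and 24.9, 8.82, 23.4 and 33.6 in anti-miR-873 BDL. The lowest values in each BDL group were again miR-Ctrl mouse 3 and anti-miR-873 mouse 2, and both groups overlapped no BDL. The log2 fold change was -0.55 in miR-Ctrl BDL (SE 0.315, edgeR adjusted p = 0.205) and -0.29 without mouse 3 (SE 0.180, edgeR adjusted p = 0.217). In anti-miR-873 BDL it was -0.48 (SE 0.306, edgeR adjusted p = 0.295) and -0.22 without mouse 2 (SE 0.153, edgeR adjusted p = 0.293). The genes that followed Stab2 most closely over the 13 mice were Chst2 (Pearson r = 0.971), Myct1 (0.965) and Egfl7 (0.965), the last of which is a general endothelial gene.

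Clec4g (Entrez 75863, chr8:3707066-3720695, minus strand), a C-type lectin of the sinusoid, had the highest level per length of the 10 genes. Its normalized counts were 45.5, 36.0, 36.1, 23.1 and 45.0 without BDL, 22.8, 32.4, 3.41 and 35.7 in miR-Ctrl BDL, and 25.5, 7.01, 18.9 and 36.5 in anti-miR-873 BDL. The groups overlapped, with the same pair of ligated mice lowest. Its log2 fold change was -0.63 in miR-Ctrl BDL (SE 0.498, edgeR adjusted p = 0.353) and -0.72 in anti-miR-873 BDL (SE 0.389, edgeR adjusted p = 0.211). Without those mice it was -0.29 (edgeR adjusted p = 0.327) and -0.44 (edgeR adjusted p = 0.211).

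Stab1 (Entrez 192187, chr14:31139017-31168651, minus strand), the other stabilin, which macrophages also express, did not follow Stab2. It had 42.5, 39.1, 38.4, 28.7 and 39.1 normalized counts without BDL. It had 35.5, 64.4, 28.1 and 38.5 in miR-Ctrl BDL and 33.7, 51.4, 55.0 and 64.1 in anti-miR-873 BDL. In anti-miR-873 BDL 3 of 4 mice were above all no BDL mice, and mouse 2, the lowest for Stab2, was among them. The log2 fold change was 0.17 in miR-Ctrl BDL (SE 0.225, edgeR adjusted p = 0.599) and 0.47 in anti-miR-873 BDL (SE 0.183, edgeR adjusted p = 0.0945). Without miR-Ctrl mouse 3 the former was 0.31 (edgeR adjusted p = 0.250). In anti-miR-873 BDL, 1 of 9 fits that left out a mouse passed the threshold, that without anti-miR-873 mouse 1 (log2 0.62, edgeR adjusted p = 0.0146).

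Lyve1 (Entrez 114332, chr7:110850607-110862953, minus strand), a hyaluronan receptor shared by sinusoidal and lymphatic endothelium and some macrophages, varied widely within groups. Its normalized counts were 5.68, 1.71, 2.56, 5.65 and 6.52 without BDL, 3.34, 7.34, 5.32 and 7.50 in miR-Ctrl BDL, and 5.22, 15.7, 4.40 and 11.2 in anti-miR-873 BDL. The highest of all 13 mice was anti-miR-873 mouse 2. The log2 fold change was 0.42 in miR-Ctrl BDL (SE 0.392, edgeR adjusted p = 0.436) and 1.05 in anti-miR-873 BDL (SE 0.461, edgeR adjusted p = 0.129). Without mouse 2 the latter was 0.67 (SE 0.446, edgeR adjusted p = 0.282). Its closest genes over the 13 mice, Mcrs1 (Pearson r = 0.880), Ado (0.872) and Phf21b (0.864), are not in the endothelial lists used here.

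Fcgr2b (Entrez 14130, chr1:170960558-170976071, minus strand), the inhibitory Fc receptor through which the sinusoid clears immune complexes, is also expressed by B cells and macrophages. It had 25.2, 27.9, 21.6, 14.2 and 23.0 normalized counts without BDL. It had 19.6, 31.0, 14.9 and 25.0 in miR-Ctrl BDL and 17.1, 9.73, 16.9 and 25.6 in anti-miR-873 BDL. All 3 groups overlapped. Its log2 fold change was 0.036 in miR-Ctrl BDL (SE 0.237, edgeR adjusted p = 0.923) and -0.33 in anti-miR-873 BDL (SE 0.270, edgeR adjusted p = 0.408). Without miR-Ctrl mouse 3 and anti-miR-873 mouse 2 these were 0.18 (edgeR adjusted p = 0.518) and -0.15 (edgeR adjusted p = 0.638). Of the 50-base windows of its transcripts 4.38% also occur in another gene, mostly Fcgr3, so some of its reads could be split between these genes.

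Genes of other cells that could contribute to the receptors moved with ligation. The summed level of 9 Kupffer cell and macrophage genes ran from 110 to 658 normalized counts in no BDL, from 670 to 1556 in miR-Ctrl BDL and from 400 to 1264 in anti-miR-873 BDL. Of these 9, 6 rose in miR-Ctrl BDL, among them the scavenger receptor Marco (log2 3.89, SE 0.863, edgeR adjusted p = 0.00682), and 1, again Marco, rose in anti-miR-873 BDL (log2 2.71, SE 0.869, edgeR adjusted p = 0.0499), where 19.1% and 13.1% of all genes rose. All 9 had a log2 fold change above 0 in each comparison, with medians of 1.61 and 1.43. The count in anti-miR-873 BDL was 8 with library size alone, 0 with DESeq2 size factors and 2 without mouse 2, where Marco missed the threshold (edgeR adjusted p = 0.0596). Between the BDL groups, with 3 mice each, 0 of the 9 passed, with all 9 below 0 and a median log2 difference of -0.50. The 5 B cell genes summed to 2.70 to 4.86 in no BDL, 0.831 to 2.54 in miR-Ctrl BDL and 0.151 to 2.70 in anti-miR-873 BDL. Their part in the levels of Stab1, Lyve1 and Fcgr2b was not tested.

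Vwf and Sox17 did not follow Cd34. Vwf (Entrez 22371, chr6:125552948-125686679, plus strand), the clotting factor stored by large-vessel endothelium and platelets, had 5.51, 3.14, 4.52, 2.62 and 2.62 normalized counts without BDL. It had 4.01, 5.55, 2.99 and 2.54 in miR-Ctrl BDL and 2.52, 2.26, 4.52 and 4.66 in anti-miR-873 BDL, so the 3 groups covered the same range. The log2 fold change was 0.060 (SE 0.308, edgeR adjusted p = 0.901) and -0.040 (SE 0.318, edgeR adjusted p = 0.941), and without miR-Ctrl mouse 3 and anti-miR-873 mouse 2 it was 0.14 and 0.11 (edgeR adjusted p = 0.744 and 0.819). The 9 platelet and megakaryocyte genes summed to 3.90 to 9.98 in no BDL, 5.04 to 10.6 in miR-Ctrl BDL and 5.24 to 8.79 in anti-miR-873 BDL. The genes closest to Vwf over the 13 mice were Tmc4 (Pearson r = 0.825), Garre1 (0.808) and Mfsd11 (0.786).

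Sox17 (Entrez 20671, chr1:4490928-4497426, minus strand), an arterial transcription factor, had 2.33, 1.43, 1.87, 2.86 and 1.67 normalized counts without BDL. It had 1.28, 2.03, 0.166 and 1.75 in miR-Ctrl BDL and 1.95, 0.452, 1.45 and 2.21 in anti-miR-873 BDL. The lowest value, miR-Ctrl mouse 3, rested on 2 reads and that of anti-miR-873 mouse 2 on 6, and the groups overlapped. Its log2 fold change was -0.59 in miR-Ctrl BDL (SE 0.482, edgeR adjusted p = 0.371) and -0.40 in anti-miR-873 BDL (SE 0.404, edgeR adjusted p = 0.512). Without those mice it was -0.26 (edgeR adjusted p = 0.480) and -0.13 (edgeR adjusted p = 0.763). The paper describes SOX17 as a regulator of human cholangiocytes. By qPCR it reports higher Sox17 with the inhibitor in BDL mice and in Mdr2-deficient mice, a model not sequenced here. Here the log2 difference of Sox17 between anti-miR-873 and miR-Ctrl BDL was 0.15 (SE 0.282, edgeR adjusted p = 0.936, 3 mice per group). This value comes from sequencing, a measure unlike qPCR. It rests on 21 to 34 reads per miR-Ctrl mouse and 24 to 45 per anti-miR-873 mouse. The part of cholangiocytes in the Sox17 level was not tested. The Sox17 count in no BDL mouse 4 was 35 in the table with miR-Ctrl BDL and 37 in that with anti-miR-873 BDL. Fcgr2b likewise differed by 1 read in no BDL mice 2, 3 and 4, and the other 8 genes had identical counts in all tables.

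Per length, the order of levels in no BDL was Clec4g with 15.1 normalized counts per kb of exon, Oit3 with 5.74, Fcgr2b with 3.86, Stab2 with 3.68, Stab1 with 3.65, Kdr with 2.20, Lyve1 with 1.52, Sox17 with 0.426, Vwf with 0.229 and Cd34 with 0.182. Clec4g (9.37 to 18.5) did not overlap Oit3 (4.46 to 6.70), and Stab1 (2.79 to 4.13) did not overlap Kdr (1.78 to 2.71). Each other pair of neighbours overlapped in range. By group mean Cd34 was thus the lowest of the 10 without BDL, within the range of Vwf (0.163 to 0.343). With 0.771 in miR-Ctrl BDL and 0.967 in anti-miR-873 BDL it stood at rank 8 and rank 7, beside Kdr with 0.844 and 0.892. Exon length was the union of all exons that GENCODE gives for a gene, which may differ from the annotation behind the counts.

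Relative to other endothelial genes, Cd34, Kdr and Oit3 kept their directions, the share of Stab2 overlapped between all groups, and Stab1 and Fcgr2b had a higher share in miR-Ctrl BDL than in no BDL. Each gene was divided by the sum of 16 pan-endothelial genes, such as Pecam1, Cdh5 and Tie1, in the same mouse, a ratio that library scaling does not change. That sum was 255 ± 45.6 normalized counts in no BDL (SD, n = 5), 177 ± 75.6 in miR-Ctrl BDL (n = 4) and 187 ± 74.1 in anti-miR-873 BDL (n = 4). Of the 10 genes 5 did not overlap between miR-Ctrl BDL and no BDL, beside 21.9% of all genes, and 2 did not between anti-miR-873 BDL and no BDL, beside 17.8% of all genes. The same genes did not overlap when miR-Ctrl mouse 3 and anti-miR-873 mouse 2 were left out.

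Kdr came to 8.89, 6.92, 8.91, 8.48 and 6.32% of the endothelial sum without BDL, to 4.65, 4.29, 0.638 and 5.44% in miR-Ctrl BDL, and to 6.21, 2.88, 3.03 and 4.17% in anti-miR-873 BDL. It was lower in all ligated mice, with anti-miR-873 mouse 1 just below the no BDL range. Cd34 rose from 0.469 to 0.693% without BDL to 2.60 to 6.80% in miR-Ctrl BDL and 2.78 to 6.89% in anti-miR-873 BDL. Stab2 stayed between 9.38 and 16.0% in all 13 mice, from 10.5 to 16.0% in no BDL, 10.8 to 12.9% in miR-Ctrl BDL and 9.38 to 13.2% in anti-miR-873 BDL. Stab1 was at 13.3 to 16.9% without BDL and 19.0 to 35.9% in miR-Ctrl BDL. It was at 16.4, 54.6, 31.1 and 23.5% in anti-miR-873 BDL, where mouse 1 overlapped no BDL. Oit3 was at 4.70 to 7.68% without BDL, 2.87 to 4.22% in miR-Ctrl BDL and 3.37 to 5.29% in anti-miR-873 BDL.

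**Figure D3:**
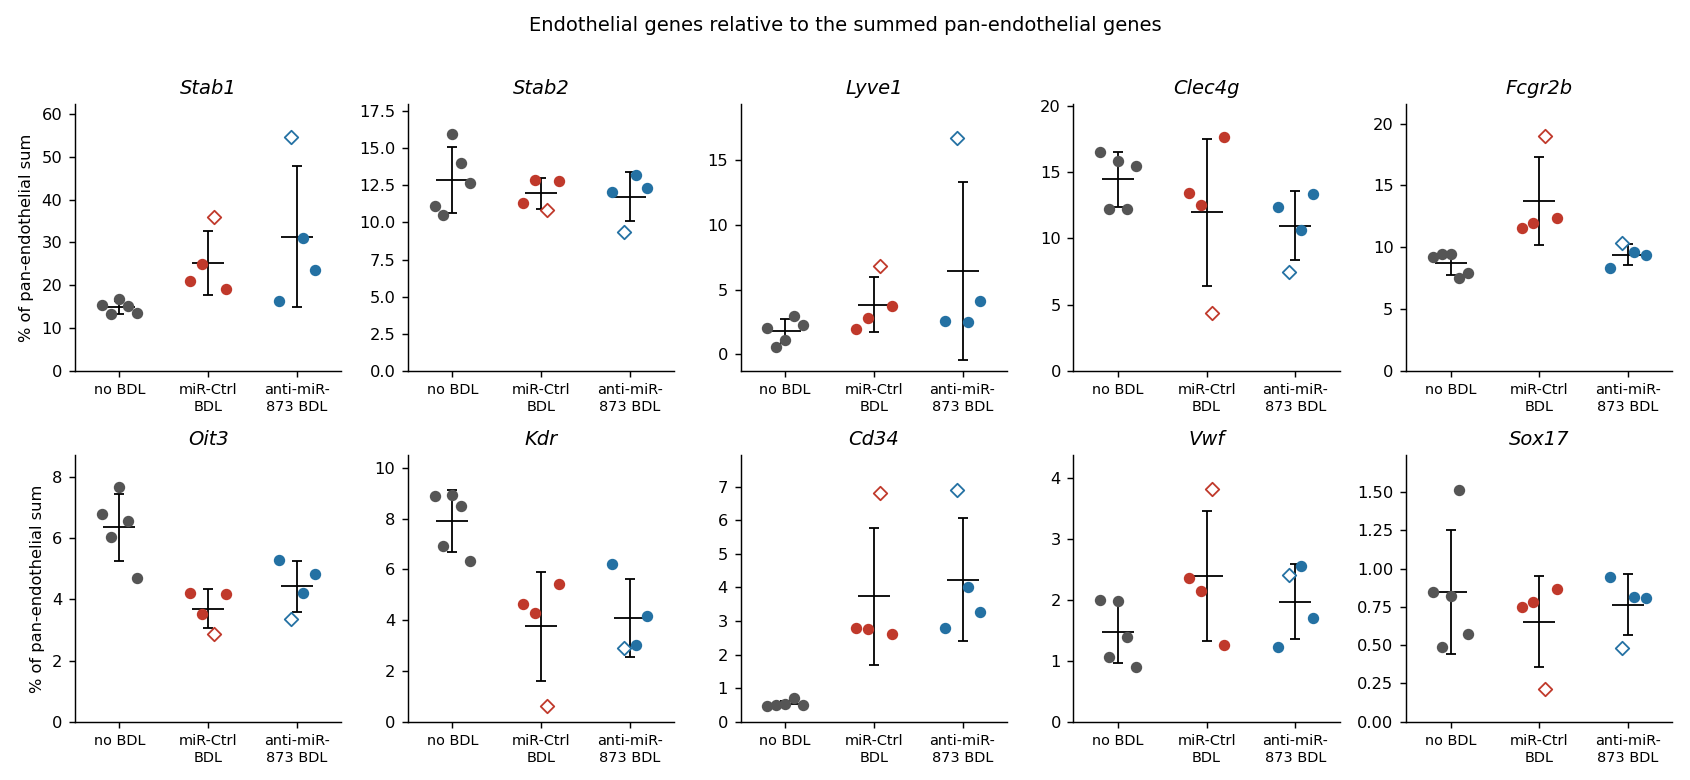
Each endothelial gene as a percent of the summed pan-endothelial genes of the same mouse (vertical axis), with group mean and SD, and open diamonds for miR-Ctrl mouse 3 and anti-miR-873 mouse 2. Stab2 lies between 9.38 and 16.0% in every mouse, while Cd34 lies at 0.693% or less in no BDL and at 2.60% or more in every BDL mouse.

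The pair of mice absent from the table of both BDL groups had low levels of most of the 10 genes and of the pan-endothelial genes, but not of every endothelial list. Of the 10 genes, 7 had their lowest miR-Ctrl BDL value in mouse 3 and 0 their highest, where 38.2% of all genes had their lowest and 38.4% their highest value in that mouse. In anti-miR-873 BDL, 7 were lowest in mouse 2 and 1 (Lyve1) was highest, beside 37.6% and 36.6% of all genes. Of the 16 pan-endothelial genes, 16 were lowest in miR-Ctrl mouse 3 and 15 in anti-miR-873 mouse 2, and their sums there were 78.2 and 94.1 normalized counts. Cd34 and Lyve1 were lowest in neither mouse. Relative to the endothelial sum, Stab2 was at 10.8% and 9.38% in these mice, the lowest value of each BDL group. Kdr was at 0.638% in miR-Ctrl mouse 3, where the other mice of the group had 4.29% or more, and at 2.88% in anti-miR-873 mouse 2, next to 3.03% in mouse 3. Counts of their hepatocyte genes differed, with a summed 6-gene level of 48321.5 normalized counts in miR-Ctrl mouse 3, the lowest of its group, and 89764.7 in anti-miR-873 mouse 2, the highest of its group. The sum of 20 other sinusoidal genes was the highest of its group in both mice, at 1642 and 1759. The sum of 18 other capillary and large-vessel genes was the highest of its group in miR-Ctrl mouse 3 (283). In anti-miR-873 mouse 2 it was the lowest of its group (135).

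**Figure D4:**
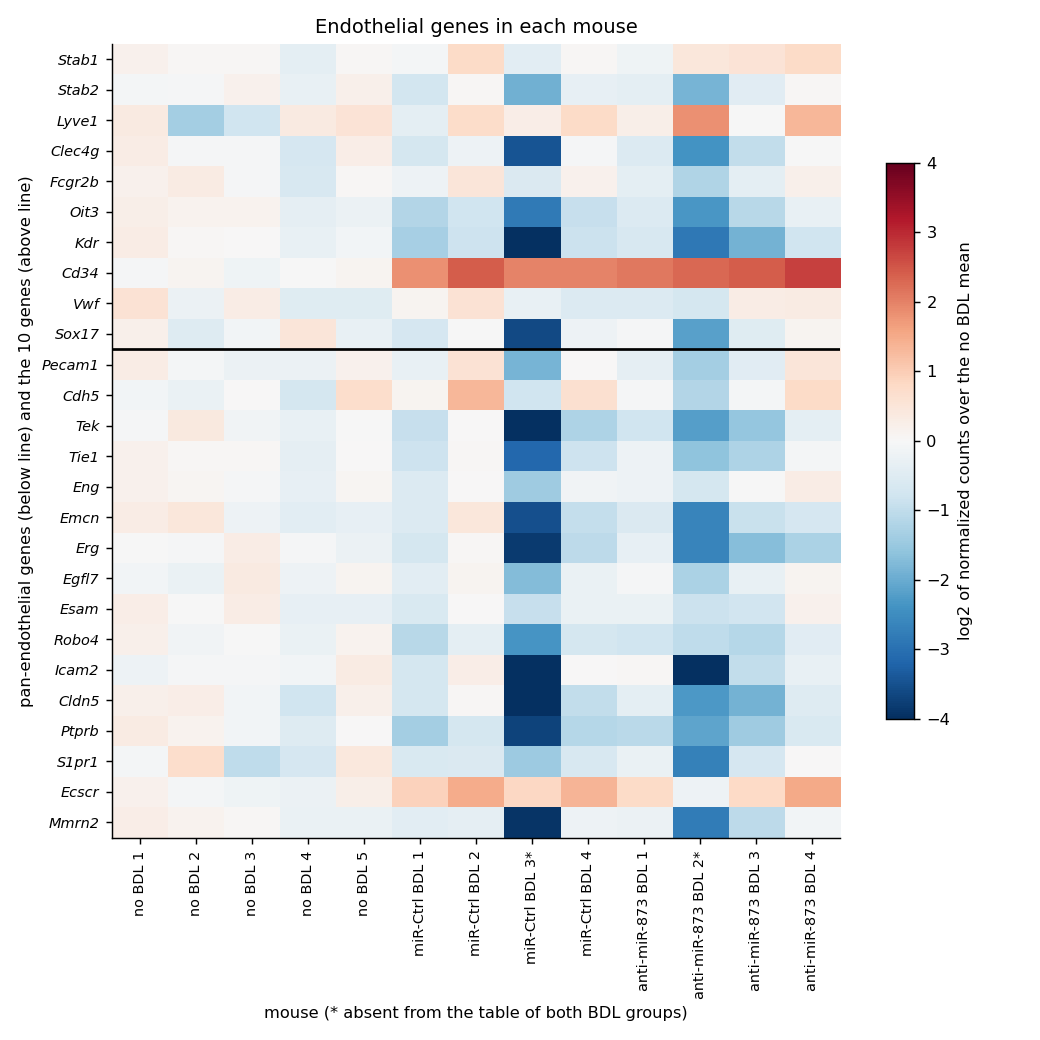
Log2 of normalized counts over the no BDL mean (colour, limited to -4 to 4) for the 10 endothelial genes, above the line, and the 16 pan-endothelial genes, below it, in each of the 13 mice. Cd34 is raised in all 8 BDL mice, and miR-Ctrl mouse 3 and anti-miR-873 mouse 2 (asterisks) show the lowest values for 16 and 15 of the 16 pan-endothelial genes within their groups.

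Anti-miR-873-5p BDL was compared with miR-Ctrl BDL to ask whether inhibition of the microRNA altered these genes in ligated livers. No difference was detected for any of the 10 with 3 mice per group. The edgeR adjusted p-values ran from 0.811 to 0.995, 0 of 10 genes had an unadjusted p under 0.05, and 0% of 13746 genes passed the adjusted threshold while 6.28% had an unadjusted p under 0.05. DESeq2 called 29 genes and 0 of the 10. Log2 differences ran from -0.34 to 0.35, with standard errors of 0.222 to 0.436. The values with the largest size were Oit3 (0.35, SE 0.222, edgeR adjusted p = 0.811), Cd34 (0.35, SE 0.232, edgeR adjusted p = 0.821) and Fcgr2b (-0.34, SE 0.223, edgeR adjusted p = 0.813). Kdr differed by -0.019 (SE 0.318, edgeR adjusted p = 0.995). In normalized counts all 10 genes overlapped between these groups, beside 11.9% of all genes that did not.

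Relative to the endothelial sum, 2 of the 10 genes did not overlap between the BDL groups with 3 mice each, beside 3.62% of all genes. Fcgr2b was at 11.5 to 12.4% in miR-Ctrl mice 1, 2 and 4 and at 8.32, 9.57 and 9.37% in anti-miR-873 mice 1, 3 and 4. It also did not overlap with all 4 mice per group, at 19.0% in miR-Ctrl mouse 3 and 10.3% in anti-miR-873 mouse 2. Oit3 was at 4.22, 3.53 and 4.19% in the miR-Ctrl mice and at 5.29, 4.22 and 4.82% in the anti-miR-873 mice, where the nearest values are equal at this rounding, and with all 4 mice the groups overlapped.

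Counts in the wider endothelial lists are read beside all genes, of which 35.7% passed with the control oligonucleotide, 19.1% as rises and 16.6% as falls, and 21.5% with the inhibitor, 13.1% and 8.44%. Of 16 pan-endothelial genes, 1 rose and 2 fell in miR-Ctrl BDL (median log2 fold change -0.60, beside -0.011 over all genes), and 0 rose and 3 fell in anti-miR-873 BDL (median -0.65, beside -0.0070), counts below and close to those shares. With library size alone 2 rose and 0 fell in each, the medians were 0.25 and 0.21, and relative to the median of all genes they were -0.54 and -0.61. Without miR-Ctrl mouse 3 and anti-miR-873 mouse 2 the medians were -0.28 and -0.36. Ptprb, the endothelial receptor phosphatase, fell by 1.36 in log2 terms with the control oligonucleotide (SE 0.438, edgeR adjusted p = 0.0358) and by 1.17 with the inhibitor (SE 0.276, edgeR adjusted p = 0.0169). Robo4, an endothelial guidance receptor, fell by 0.95 (SE 0.314, edgeR adjusted p = 0.0384) and by 0.80 (SE 0.174, edgeR adjusted p = 0.0121). All these calls were lost with library size alone, where Ptprb was at -0.50 and -0.30 (edgeR adjusted p = 0.329 and 0.366) and Robo4 at -0.12 and 0.037 (edgeR adjusted p = 0.763 and 0.889). Ecscr rose by a log2 of 1.18 in miR-Ctrl BDL (SE 0.204, edgeR adjusted p = 0.00206) and was at 0.87 in anti-miR-873 BDL (SE 0.312, edgeR adjusted p = 0.0721). Without anti-miR-873 mouse 2 the latter was 1.08 and passed (SE 0.233, edgeR adjusted p = 0.0092). With library size alone Ecscr passed in both, at 2.00 and 1.74 (edgeR adjusted p = 9.81e-05 and 0.00171).

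Of 18 further sinusoidal genes tested, 4 rose and 2 fell in miR-Ctrl BDL (median -0.36), and 1 rose and 3 fell in anti-miR-873 BDL (median -0.41), again close to the shares of all genes past the threshold (35.7% and 21.5%). With library size alone both medians turned positive, at 0.49 with 6 higher and 0 lower and at 0.45 with 7 and 0. Without miR-Ctrl mouse 3 and anti-miR-873 mouse 2 they were -0.097 with 2 higher and 4 lower, and -0.23 with 3 higher and 3 lower. Ehd3, an endocytic protein of the sinusoid, fell by 1.29 on the log2 scale (SE 0.385, edgeR adjusted p = 0.0260) and by 0.87 (SE 0.280, edgeR adjusted p = 0.0499). Scaled by library size alone, these were -0.43 and -0.0096 (edgeR adjusted p = 0.328 and 0.976), and the call in anti-miR-873 BDL was lost without mouse 2 (log2 -0.69, edgeR adjusted p = 0.0526). Clec1b, a C-type lectin-like receptor, rose by 1.27 (SE 0.348, edgeR adjusted p = 0.0180) and 0.95 (SE 0.287, edgeR adjusted p = 0.0408). Which cells of the whole liver this rise came from was not tested. The fatty acid receptor Cd36, which hepatocytes and macrophages also make, rose by 1.09 in miR-Ctrl BDL (SE 0.384, edgeR adjusted p = 0.0489), and without mouse 3 it was at 0.61 (edgeR adjusted p = 0.135).

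Of 13 further genes of capillaries and large vessels tested, 4 rose and 2 fell in miR-Ctrl BDL (median 0.28), and 4 rose and 1 fell in anti-miR-873 BDL (median 0.41), beside 35.7% and 21.5% of all genes past the threshold. Scaled by library size alone, 8 rose and 0 fell in each, with medians of 1.08 and 1.24. The leukocyte adhesion molecules Icam1 and Vcam1 were among those that rose, and they are also made by other liver cells. Vcam1 ran from 4.94 to 17.0 normalized counts without BDL, from 30.4 to 55.6 in miR-Ctrl BDL and from 18.6 to 56.9 in anti-miR-873 BDL, with log2 fold changes of 2.23 (SE 0.341, edgeR adjusted p = 0.00114) and 2.05 (SE 0.426, edgeR adjusted p = 0.0102). Icam1 rose by a log2 of 2.62 (SE 0.584, edgeR adjusted p = 0.00693) and 1.76 (SE 0.516, edgeR adjusted p = 0.0370), and without miR-Ctrl mouse 3 the former was 2.08 (edgeR adjusted p = 0.0110). The immunoglobulin-family membrane protein Cd200 had 3 to 10 reads without BDL, 28 to 40 in miR-Ctrl BDL and 20 to 85 in anti-miR-873 BDL, with log2 fold changes of 2.08 (SE 0.318, edgeR adjusted p = 0.00114) and 2.37 (SE 0.419, edgeR adjusted p = 0.00539).

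Other ligands and receptors of the VEGF family, to which Kdr belongs, and those of the angiopoietin family were measured alongside it. Of 11 ligands and receptors of the VEGF and angiopoietin families tested, 1 rose and 2 fell in miR-Ctrl BDL (median -0.53), and the counts were 1 and 2 in anti-miR-873 BDL (median -0.24), beside 35.7% and 21.5% of all genes past the threshold. Under library size alone the medians turned to 0.26 with 2 higher and 0 lower and to 0.55 with 3 and 0. Vegfa, the principal ligand of Kdr, ran from 128 to 205 normalized counts without BDL, from 71.0 to 162 in miR-Ctrl BDL and from 66.7 to 144 in anti-miR-873 BDL, and the highest value of each BDL group was in miR-Ctrl mouse 3 and anti-miR-873 mouse 2. It fell by 0.76 on the log2 scale (SE 0.243, edgeR adjusted p = 0.0339) and by 0.74 (SE 0.227, edgeR adjusted p = 0.0423), and both calls were lost with library size alone (-0.013 and 0.030, edgeR adjusted p = 0.963 and 0.906). The co-receptor Nrp1 fell by 0.53 (SE 0.186, edgeR adjusted p = 0.0482) and by 0.80 (SE 0.221, edgeR adjusted p = 0.0299), and with library size alone these were 0.26 and 0.061, neither past the threshold (edgeR adjusted p = 0.137 and 0.823). Without miR-Ctrl mouse 3, Vegfa was at -1.10 and Nrp1 at -0.77 (edgeR adjusted p = 0.000812 and 0.00157). Without anti-miR-873 mouse 2, Vegfa was at -0.97 and Nrp1 at -0.62 (edgeR adjusted p = 0.00858 and 0.00885). Vegfc, the lymphatic growth factor, rose by 0.68 (SE 0.181, edgeR adjusted p = 0.0163) and 0.67 (SE 0.211, edgeR adjusted p = 0.0471). In anti-miR-873 BDL against miR-Ctrl BDL no gene of these lists passed the test.

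**Figure D5:**
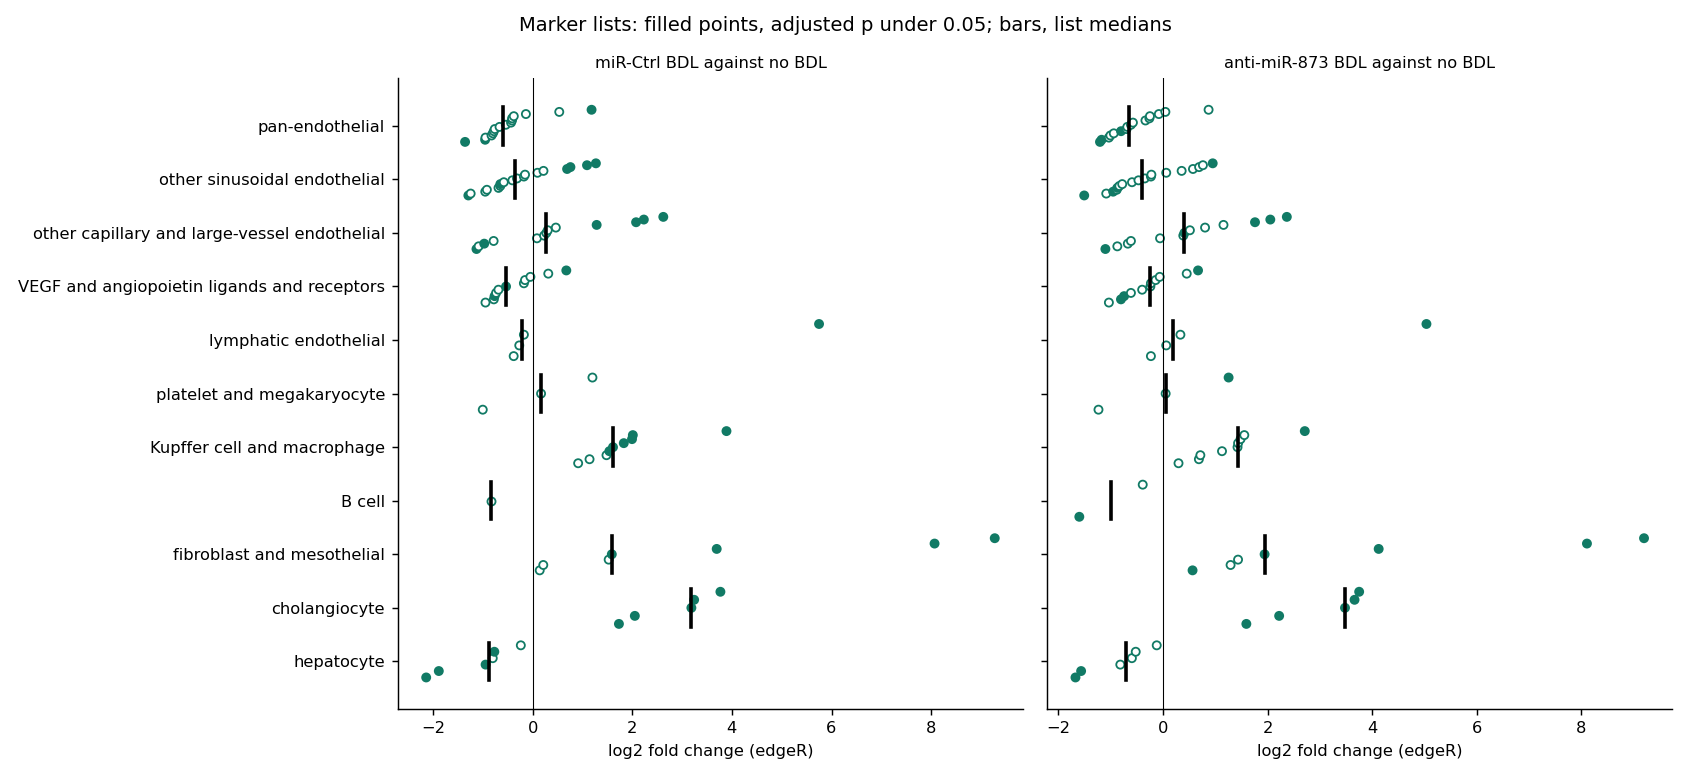
Log2 fold changes (horizontal axis, edgeR) of single genes in each marker list for both BDL groups against no BDL, with filled points for an adjusted p under 0.05 and bars for list medians. The pan-endothelial median lies at -0.60 and -0.65, and points beyond 5 are genes with at most 2 reads in any no BDL mouse, whose fitted fold depends on the prior count.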

How the data were processed

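RNA of 13 whole livers was sequenced from TruSeq RNA v2 libraries. The authors mapped single reads to mm10 with TopHat and deposited raw counts per Entrez gene in 3 tables, 1 per comparison, and the read counter and its annotation are not given in the sources used here. The submitters' processing notes also name CASAVA 1.8.2, FastQC, Trim Galore and DESeq2. All value columns were used (0 left out), and groups came from the sample labels. Totals were 12185333 to 19689037 counts per mouse, and replicate libraries differed by more than sampling noise (chi-square per degree of freedom of 21.5 to 218). The tables against no BDL gave different counts for 666 of 23019 shared genes (2.89%).

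Genes were filtered with filterByExpr, scaled by TMM and tested with edgeR 4.0.16 in R 4.3.3 (glmQLFit and glmQLFTest, Benjamini-Hochberg over all genes tested, adjusted p of 0.05), within each deposited table. A standard error is the size of the log2 fold change over the root of the F statistic. Normalized counts of all 13 mice used TMM factors from the 22246 genes with identical counts in all tables. Log2 values for correlations used a prior count of 2. Tested on simulated data in which 200 genes differed by a log2 of 2, the fit recovered 88.5% (miR-Ctrl BDL against no BDL, 13072 genes), 91% (anti-miR-873 BDL against no BDL, 13130 genes) and 87.5% (between BDL groups, 13746 genes). Of the genes called, 3.80%, 3.19% and 5.91% had not been changed. No smaller difference was simulated, so the recovered shares do not apply to differences of the size seen between the BDL groups. Alternatives were scaling by library size or by DESeq2 size factors, DESeq2 1.42.0, other count filters, 1 fit over all mice, a block for mouse number, all 4 mice per BDL group, an adjusted p of 0.1 and leaving out each mouse. The context lists and the ratios were also computed without the pair of absent mice, and the lists under other scalings, alternatives chosen after seeing the data. The main fits did not treat mouse numbers as pairs. Of 12 same-number pairs, 2 had a correlation of deviations over 0.1 (range -0.371 to 0.535). Both were between the BDL groups, at 0.535 for the mice numbered 1 and 0.219 for those numbered 4. The BDL pairs numbered 2 and 3 (-0.371 and -0.346) each include an absent mouse, so these correlations cannot decide whether numbers pair the mice.

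Positions are RefSeq GRCm38 gene spans, and 99.7% of identifiers matched RefSeq. Gene spans of 6 of the 10 genes (all but Lyve1, Fcgr2b, Vwf and Sox17) overlap another annotated gene, and reads of overlapping genes cannot be told apart without strand. The genes and lists were chosen with earlier results of these data known. Named were the 10 genes, Gnmt, the 3 genes of each list with the largest change among those past the threshold in miR-Ctrl BDL, and the 3 genes most correlated with each of Stab2, Lyve1, Cd34 and Vwf among 12984 genes.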

Additional observations from a re-analysis of the deposited data

How the results depend on the processing

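Of the 10 genes, Cd34 kept its direction and its side of the threshold against no BDL under every alternative run, and Oit3 in miR-Ctrl BDL under every alternative but library size alone. With library size alone, 5 genes passed in miR-Ctrl BDL, where 73.7% of all genes did, and values turned to 0.28 (Stab2), 0.21 (Clec4g) and 0.24 (Sox17). In anti-miR-873 BDL they turned to 0.38 (Stab2), 0.15 (Clec4g), 0.54 (Fcgr2b), 0.013 (Oit3), 0.81 (Vwf) and 0.45 (Sox17), and between the BDL groups to 0.019 (Kdr) and 0.0045 (Vwf). In anti-miR-873 BDL against no BDL, 1 gene passed with all 13 mice in 1 fit and 4 at an adjusted p of 0.1. Between the BDL groups Kdr was 0.081 with all 13 mice and 0.084 with all 4 mice per group. Fcgr2b and Sox17 could not be placed in those 2 fits, since their counts differ between tables.

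With mouse number as a replicate block, 1 gene passed in anti-miR-873 BDL against no BDL, where Kdr was at -1.48 (edgeR adjusted p = 0.0571), and 2 in miR-Ctrl BDL, where Vwf turned to -0.057. Between the BDL groups the block turned Clec4g to 0.10, Kdr to 0.37 and Vwf to 0.12, and 0 genes passed. Whether the numbers pair the mice is not known.

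Leaving out each mouse in turn gave 2 to 3 genes past the threshold in miR-Ctrl BDL (3 without miR-Ctrl mouse 3), 1 to 3 in anti-miR-873 BDL (3 without its mouse 1, 1 without any of no BDL mice 1 to 4 or its mice 3 and 4) and 0 between the BDL groups. Directions turned for Stab1 (-0.14 to 0.31), Fcgr2b (-0.16 to 0.18) and Vwf (-0.20 to 0.25) in miR-Ctrl BDL and for Vwf (-0.22 to 0.15) in anti-miR-873 BDL. Between the BDL groups they turned for Stab1 (-0.055 to 0.47), Stab2 (-0.11 to 0.28), Lyve1 (-0.33 to 0.44), Clec4g (-0.44 to 0.036), Kdr (-0.24 to 0.27), Vwf (-0.29 to 0.26) and Sox17 (-0.0092 to 0.31). The cause of these changes was not tested. Low counts limit Sox17, Vwf and, without BDL, Cd34.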

Other observations

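Lymphatic endothelium was represented by few detected genes. Of 6 lymphatic genes 4 were tested, and 1 rose in each BDL group against no BDL, beside 19.1% and 13.1% of all genes. That gene was Pdpn, a mucin-type protein of lymphatic vessels that bile duct and mesothelial cells also make. It had 0 to 2 reads in no BDL mice, 28 to 110 in miR-Ctrl BDL and 23 to 71 in anti-miR-873 BDL, with the highest of all in miR-Ctrl mouse 3, whose pan-endothelial genes were lowest. Cholangiocyte genes rose in both BDL groups, 5 of 5 tested, beside the same shares of all genes, and their sum ran from 45.7 to 133 normalized counts in no BDL, from 482 to 1727 in miR-Ctrl BDL and from 231 to 1666 in anti-miR-873 BDL. The part of these cells in the level of Pdpn was not tested.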
